A study of Homo sapiens with 7 samples.

Results

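The 46 genes described here encode the integrins, the laminins and 8 further matrix proteins, out of 59251 rows of the count table. They were chosen by symbol: 18 integrin alpha subunits, 8 integrin beta subunits, 12 laminin chains, and FN1, VTN, FBN1, FBN2, ECM1, NID1, NID2 and HSPG2. The groups were labelled DJL1 (n = 3) and CTRL (n = 4), and all 7 were poly(A) RNA libraries of H9, an established human embryonic stem cell line kept as naive cells in RSeT medium. Cells were transfected with guide RNA plasmids, and by its title the study concerns LINE1 elements, a family of transposons, in the distal junctions beside the ribosomal DNA arrays. Neither the guide of the CTRL cells nor the protein that the guides direct is named in the labels. Every group was transfected in RSeT with 10 nM DZNep, which lowers histone methylation, and 5 nM TSA, an inhibitor of histone deacetylases. Every group also had the CEPT survival cocktail for the first 16 h (50 nM of the ROCK inhibitor Chroman 1, 5 µM of the caspase inhibitor Emricasan, polyamines and 0.7 µM trans-ISRIB), and cells were collected at 48 h. The labels mention a cell sort in one place and direct RNA extraction in another. All values therefore come from cells under these agents, in a single line.

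Integrins are cell surface receptors made of an alpha and a beta subunit, and the pairing decides which matrix protein is bound. Laminins are trimers of an alpha, a beta and a gamma chain that form the sheet of a basement membrane, where nidogens and perlecan tie them to the collagen network. Pluripotent cells of the early embryo sit against such a membrane, and human embryonic stem cells are commonly grown on laminin or vitronectin, to which they attach through integrins that contain ITGA6 with ITGB1 or ITGAV with ITGB5. The coating used for these cells is not given in the sources used here.

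Library totals ran from 34634882 to 37795742 counts in DJL1 and from 62277489 to 76691997 counts in CTRL, so depth differed with the group. The spread between libraries, as edgeR's coefficient of variation, was 13.8% in DJL1 and 3.46% in CTRL. For each gene edgeR's test fits a shared spread to both groups, so its standard errors and intervals do not allow for this difference. No batch is given in the labels, so an effect of library preparation or sequencing cannot be told apart from that of the group. The pluripotency marker list was expressed throughout, at a summed level of 9303 to 10390 CPM in DJL1 and 11550 to 11780 CPM in CTRL. CPM is counts per 1000000 counts of the scaled library. Of its 10 genes 8 were lower in DJL1, beside 25.1% of all tested genes and 46.9% of those with a mean of at least 20 CPM. The most abundant marker, POU5F1, averaged 5354 CPM in DJL1 and 5324 CPM in CTRL and was not called. In such bulk RNA, more cells of a type that expresses a gene and more RNA of it per cell cannot be told apart.

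Members moved in both directions. In DJL1 cells the chain LAMA3, the receptor subunit ITGA3 and the glycoproteins FN1, FBN1 and FBN2 were higher. LAMA5, LAMA1, LAMB1, LAMB2 and LAMC3, the subunits ITGB1 and ITGB5, and ECM1 were lower. LAMB3 was slightly higher (log2 fold change 0.20), with overlapping groups and a call that some alternatives lost. Of the 46 members 45 passed the filter on low counts, and of these 20 were higher and 12 lower at an adjusted p under 0.05 (edgeR, quasi-likelihood F test, adjusted by Benjamini-Hochberg over 26062 genes). That is 44.4% higher and 26.7% lower, beside 27.0% higher and 25.1% lower over all tested genes (52.0% in either direction). Over the 16676 protein-coding genes tested, 33.6% were higher and 29.7% lower. The members called higher include ITGA8 and LAMB4, which passed the filter through the DJL1 libraries alone. They also include ITGB7, whose CTRL libraries alone would not have passed it. The median log2 fold change was 0.20 over the 45 members and 0.01 over all tested genes.

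Direction went with abundance among the members, as it did among all genes. Of the 20 members with a mean of at least 20 CPM, 7 were higher and 9 lower, beside 24.9% and 46.9% of all tested genes at that level. Of the 25 tested members under 20 CPM, 13 were higher and 3 lower, beside 28.0% and 14.2% of all tested genes there. Changes of at least 2-fold were found for 9 members that were higher and for 1 that was lower, ECM1, beside 10.7% and 2.20% of all tested genes. Those 9 include ITGA8 and LAMB4, and also ITGB7, which needed the DJL1 libraries to pass the filter. The groups did not overlap for 19 tested members that were higher and 12 that were lower in DJL1 (27.4% and 26.2% of all tested genes, 53.6% in either direction).

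**Figure D1:**
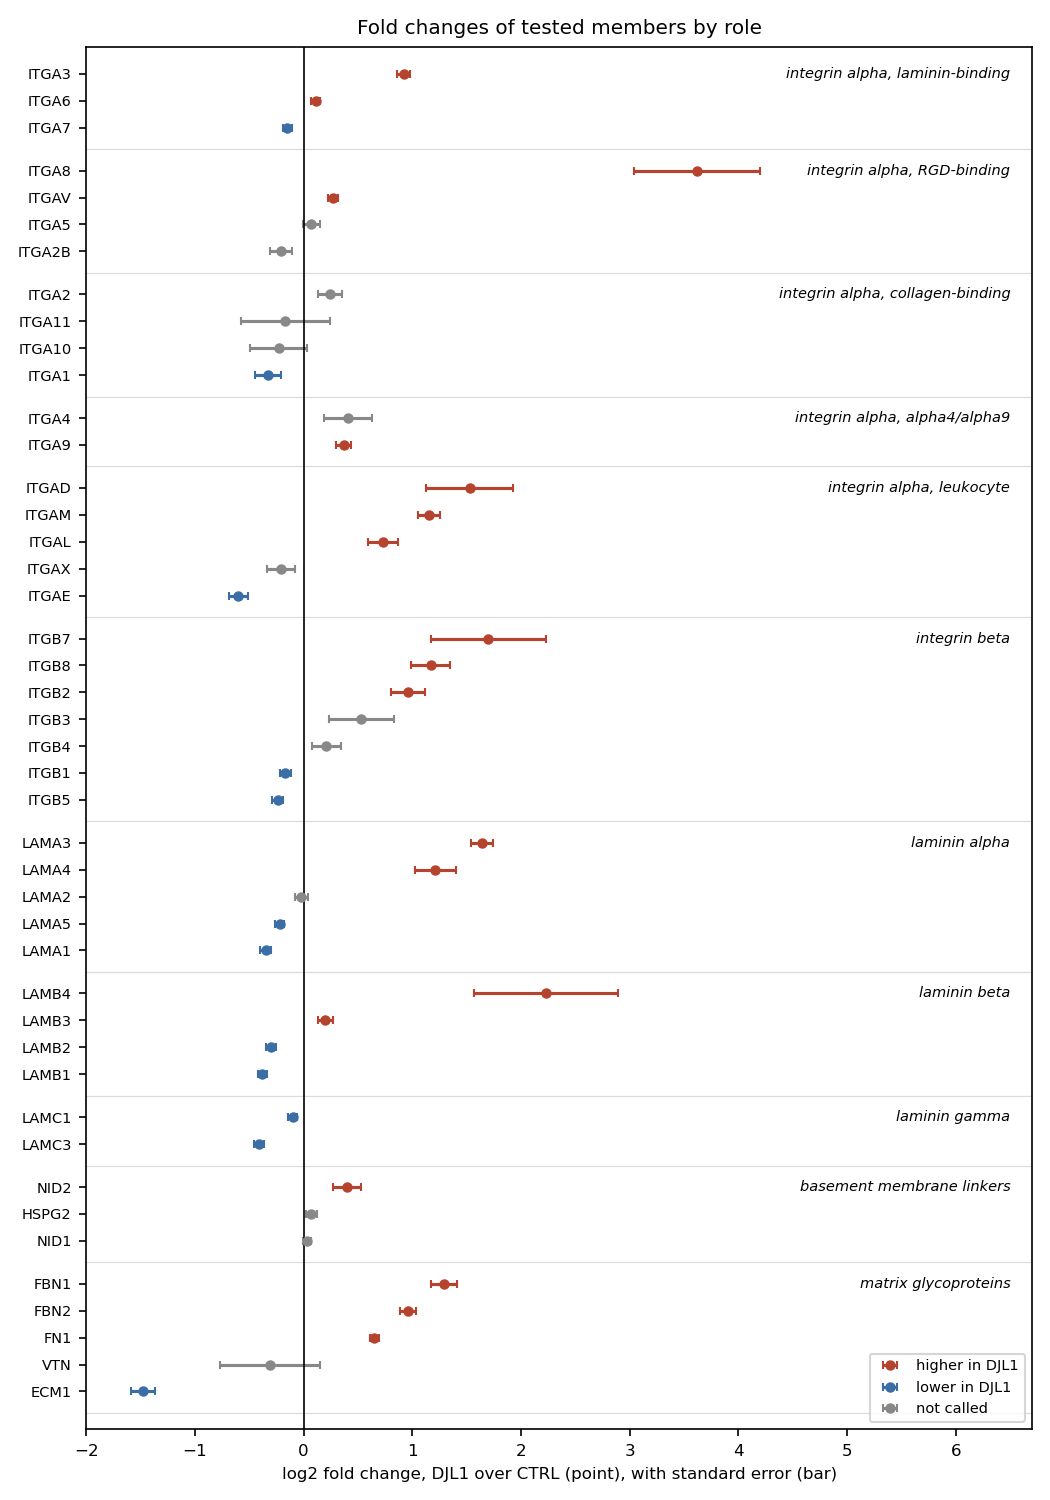
Log2 fold change of DJL1 over CTRL (x axis) for the tested members reported here, grouped by role, with the standard error as a bar and the call of edgeR's test as colour. ITGA8, which passed the filter through DJL1 alone, lies farthest right at 3.62 with a wide error. LAMA3 leads the laminin alpha chains at 1.64, and ECM1 lies farthest left at -1.48.

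Among the laminin alpha chains, LAMA3 rose and the chain that dominates in these cells, LAMA5, fell. LAMA3 encodes the alpha chain of the laminin that anchors epithelia such as the skin. It had 96.0, 133 and 95.1 CPM in the DJL1 libraries, against 33.9, 33.3, 34.9 and 36.1 CPM in the CTRL libraries. Each DJL1 library was above every CTRL library, with DJL1 replicate 2 the highest. The log2 fold change was 1.64 ± 0.10 (SE, adjusted p = 9.3e-08), and it was 1.46 without DJL1 replicate 2. LAMA5, the alpha chain of the laminins that embryonic stem cells make and adhere to, had 314, 311 and 317 CPM in DJL1, against 358, 374, 361 and 368 CPM in CTRL. The groups did not overlap, and the log2 fold change was -0.22 ± 0.04 (adjusted p = 9.8e-05). LAMA1, the alpha chain of the earliest embryonic laminin, averaged 47.4 ± 2.70 CPM in DJL1 and 60.3 ± 1.45 CPM in CTRL (SD, n = 3 and 4; log2 fold change -0.35). LAMA4, a chain of vessel and mesenchymal basement membranes, stood low at 2.55 ± 0.24 CPM in DJL1 and 1.10 ± 0.17 CPM in CTRL and rose by 1.21 on the log2 scale. LAMA2, the muscle chain, averaged 22.5 CPM in DJL1 and 22.7 CPM in CTRL, and its log2 fold change of -0.02 had a 95% interval from -0.14 to 0.11.

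The RefSeq promoter table gives for LAMA3 a start at position 23873020 of chromosome 18, inside the gene's span (23689453 to 23955066, GRCh38.p14). The 250 bases before it are shown because LAMA3 had the highest fold change among members above 1 CPM. Capitals mark matches to the AP-1 motif TGANTCA, searched on both strands, which begin 125 and 69 bases before the start.
LAMA3, chr18:23872770-23873019, plus strand: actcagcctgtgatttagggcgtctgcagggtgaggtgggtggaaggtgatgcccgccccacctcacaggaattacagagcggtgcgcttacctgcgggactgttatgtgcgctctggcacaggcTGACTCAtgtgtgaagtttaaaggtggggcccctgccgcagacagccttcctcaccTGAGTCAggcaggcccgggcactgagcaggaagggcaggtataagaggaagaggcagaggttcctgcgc
The same window held this motif in LAMA3 and ECM1, 2 of the 34 members with a promoter there (5.88%), beside 6.60% of all 27305 promoters. The other motifs searched, each on both strands, were CRE (TGACGTCA), the GC box (GGGCGG), TEAD (GGAATG) and the TATA box (TATAAA), found in 1, 19, 6 and 2 of the 34 and in 1.77%, 42.3%, 11.9% and 11.1% of all promoters.

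Among the beta chains, LAMB3 was higher and LAMB1 and LAMB2 were lower. LAMB3 joins LAMA3 in its laminin. LAMB3 had 45.5, 58.6 and 52.4 CPM in DJL1, against 43.7, 47.4, 46.8 and 43.7 CPM in CTRL. DJL1 replicate 1 lay within the CTRL range, and the log2 fold change of 0.20 ± 0.07 (adjusted p = 0.0234) fell to 0.10 without DJL1 replicate 2 (adjusted p = 0.186). The LAMB3 call was also lost without CTRL replicate 1 (adjusted p = 0.0657), CTRL replicate 4 (0.0641) or DJL1 replicate 3 (0.0634).

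LAMB1, which joins LAMA5 or LAMA1, had 88.9, 80.4 and 87.5 CPM in DJL1, against 113, 111, 110 and 112 CPM in CTRL. The groups were well apart, and the log2 fold change was -0.38 ± 0.04 (adjusted p = 2.6e-06). LAMB2, the other beta partner of LAMA5, averaged 73.2 ± 5.09 CPM in DJL1 and 90.2 ± 1.88 CPM in CTRL (log2 fold change -0.30). LAMC3, a gamma chain known from the retina and brain, averaged 48.7 ± 3.29 CPM in DJL1 and 64.8 ± 2.32 CPM in CTRL (-0.41). LAMC1, the gamma chain of most laminins, averaged 147 ± 1.29 CPM in DJL1 and 157 ± 1.44 CPM in CTRL (log2 fold change -0.10 ± 0.04, adjusted p = 0.0324). That call was lost without any 1 of the CTRL libraries (adjusted p = 0.0631 to 0.0901) and with upper quartile factors (0.0673), library size alone (0.0596) or the stricter filter (0.0903). LAMB4 was near the limit of detection, with 14, 11 and 7 counts in DJL1, against 7, 6, 1 and 2 counts in CTRL, and passed the test (log2 fold change 2.23 ± 0.66, adjusted p = 0.0101). Every CTRL library was below the filter's cutoff, so LAMB4 was tested through the DJL1 libraries alone. Of the 12 laminin genes 5, LAMB4 included, were higher and 6 lower, or 41.7% and 50.0%, beside 27.0% and 25.1% of all tested genes.

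**Figure D2:**
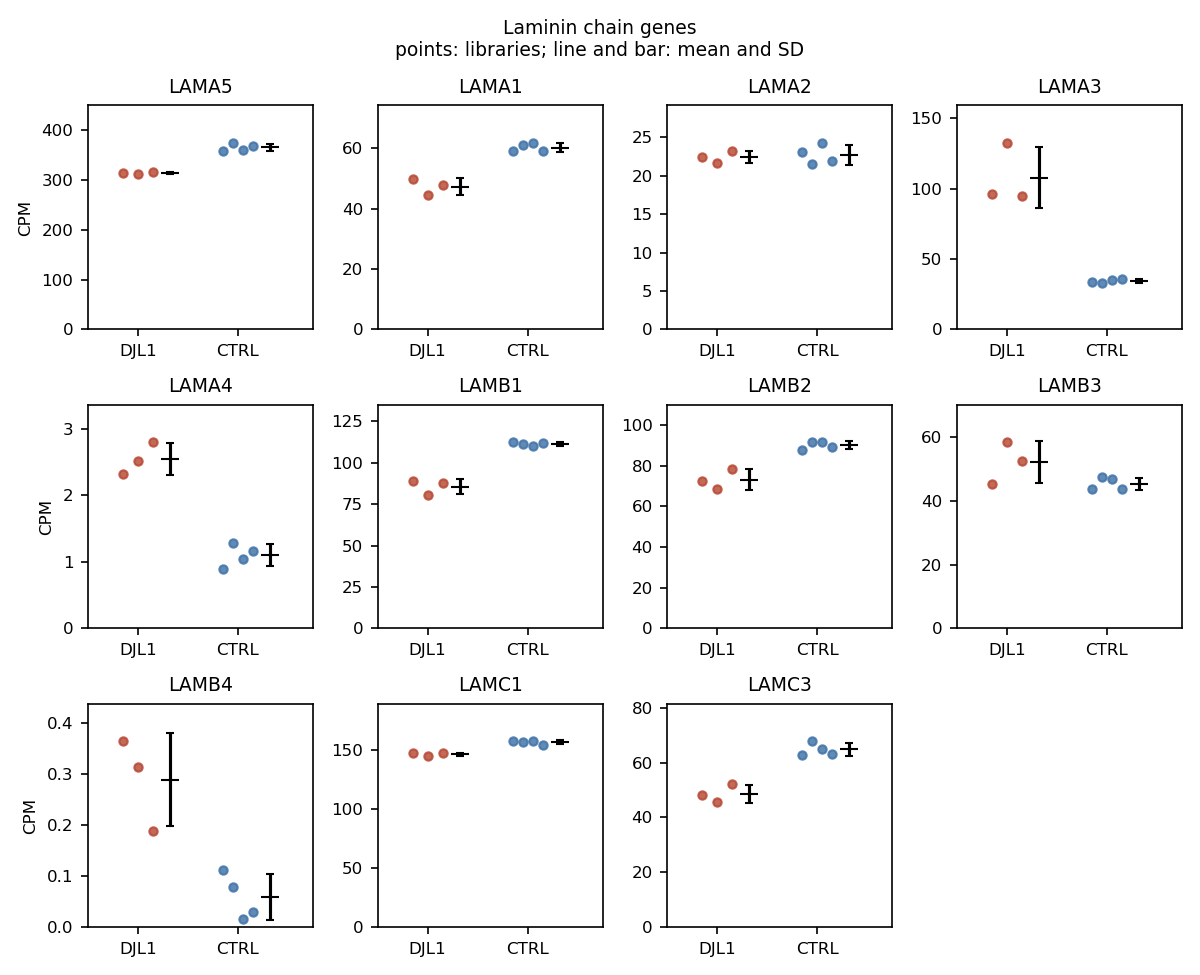
CPM of laminin chain genes in each library (points), with the mean and SD of the 3 DJL1 and 4 CTRL libraries beside them, each panel on its own scale from 0. LAMA3 lies between 95.1 and 133 CPM in DJL1, above 33.3 to 36.1 CPM in CTRL, while LAMA5, LAMA1, LAMB1, LAMB2 and LAMC3 lie lower in DJL1 with no overlap.

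Counts per kilobase of the longest protein-coding transcript (GENCODE release 29) allow chains to be set beside each other. By this measure LAMA3 made up 20.3%, 26.5% and 20.1% of alpha chain RNA in the DJL1 libraries, against 7.36%, 6.99%, 7.45% and 7.67% in the CTRL libraries. It was thus above LAMA1 in DJL1 (10.9 ± 0.95% for LAMA1) and below it in CTRL (14.2 ± 0.31%). LAMA5 remained the main alpha chain in each group, at 60.8 ± 2.38% in DJL1 and 72.7 ± 0.65% in CTRL. With the union of exons as length, the LAMA3 share averaged 18.8% in DJL1 and 6.004% in CTRL, and which isoform the cells make was not analysed here. LAMB3 held 30.4 ± 3.62% of beta chain RNA in DJL1 and 23.0 ± 0.69% in CTRL, the remainder being nearly all LAMB1 and LAMB2. Among gamma chains the LAMC3 share was 25.7 ± 1.41% in DJL1 and 31.1 ± 0.66% in CTRL. The ranges of the groups did not overlap for LAMA5, LAMA3, LAMA1, LAMB3 or LAMC3, and shares within a class sum to 100%, so they do not vary freely.

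**Figure D3:**
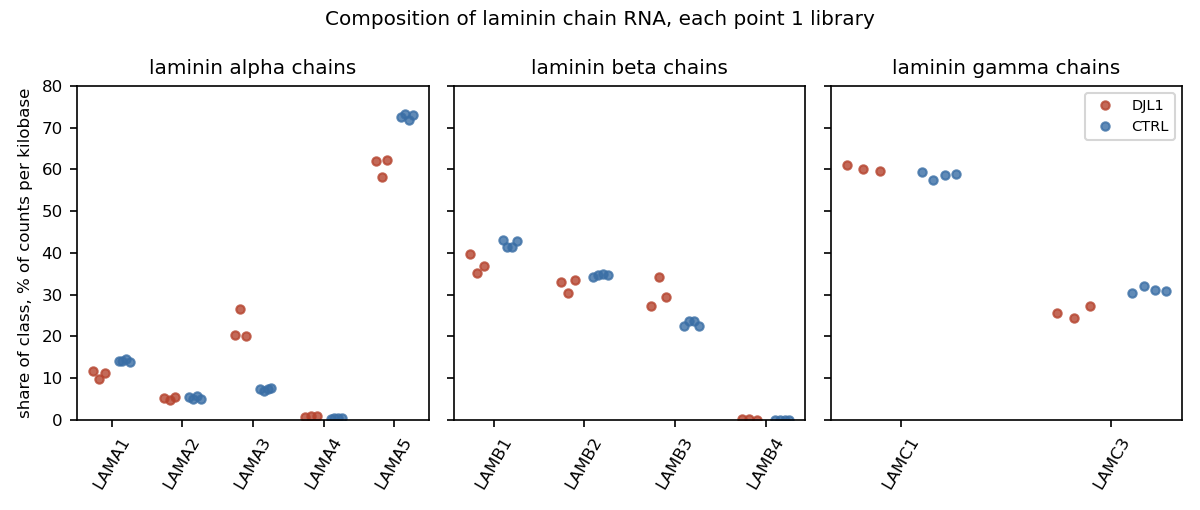
Share of each chain in the RNA of its laminin class (y axis, percent of counts per kilobase), each point 1 library, with DJL1 left of CTRL for each gene. The LAMA3 points lie at 20.1% to 26.5% in DJL1 and at 6.99% to 7.67% in CTRL, with the LAMA5 points at 58.1% to 62.4% in DJL1 and 71.9% to 73.4% in CTRL.

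Of the laminin-binding integrin subunits, ITGA3 rose most. ITGA3 pairs with ITGB1 to bind laminins that contain LAMA3 or LAMA5. It had 60.2, 69.9 and 60.8 CPM in DJL1, against 33.4, 32.1, 34.5 and 34.1 CPM in CTRL. The groups were far apart, and the log2 fold change was 0.92 ± 0.06 (adjusted p = 4e-09). ITGA6, a laminin receptor subunit and a stem cell surface marker, averaged 135 ± 6.63 CPM in DJL1 and 125 ± 1.22 CPM in CTRL. Its log2 fold change of 0.11 ± 0.04 passed narrowly (adjusted p = 0.0356) and lost the call without CTRL replicate 1, 2, 3 or 4 or DJL1 replicate 1 or 3 (adjusted p = 0.0537 to 0.195). It also lost the call with relative log expression factors (0.0551) and with no filter (0.211). ITGA7, the laminin receptor of muscle, had 124, 126 and 127 CPM in DJL1, against 138, 143, 136 and 139 CPM in CTRL (log2 fold change -0.15 ± 0.04, adjusted p = 0.00438). Per kilobase, ITGA7 and ITGA6 were the most abundant alpha subunits in each group, and ITGA3 came next in DJL1, at 13.0 CPM per kb against 6.86 in CTRL. In CTRL, ITGA3 lay next to ITGA5 (7.21 CPM per kb) and ITGAV (6.01 CPM per kb). ITGB4, which pairs with ITGA6 in the anchoring junctions of epithelia, averaged 7.76 ± 1.94 CPM in DJL1 and 6.69 ± 0.31 CPM in CTRL and was not called (95% interval of the log2 fold change -0.05 to 0.47). The overlapping gene GALK1 had 16.8 CPM in DJL1 and 20.9 CPM in CTRL.

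The partner subunits ITGB1 and ITGB5 were the most abundant integrin genes and were lower in DJL1. ITGB1, the shared partner of most matrix-binding alpha subunits, had 343, 288 and 340 CPM in DJL1, against 370, 361, 361 and 366 CPM in CTRL. The highest DJL1 library stayed below the lowest CTRL library, and the log2 fold change was -0.17 ± 0.05 (adjusted p = 0.0117) and -0.11 without DJL1 replicate 2. The row of its processed pseudogene ITGB1P1 held 60.5 CPM in DJL1 and 69.6 CPM in CTRL, so part of the reads may be split between the pair. With both rows summed, an alternative chosen after seeing the data, the ITGB1 value was -0.18 (adjusted p = 0.00948). ITGB5, the vitronectin receptor partner of ITGAV, had 274, 250.5 and 300 CPM in DJL1, against 319, 332, 322 and 328 CPM in CTRL (log2 fold change -0.24 ± 0.05, adjusted p = 0.00078). Together these subunits held most of the beta subunit RNA per kilobase, with ITGB1 at 56.0 ± 1.54% in DJL1 and 55.6 ± 0.64% in CTRL.

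Subunits that recognise the RGD sequence of fibronectin and vitronectin varied. ITGAV, which pairs with ITGB1, ITGB3, ITGB5, ITGB6 or ITGB8, had 53.5, 48.4 and 50.5 CPM in DJL1, against 41.7, 40.5, 43.9 and 43.0 CPM in CTRL. It rose with no overlap (log2 fold change 0.27 ± 0.05, adjusted p = 0.00035). ITGB8, whose pairing with ITGAV releases active TGF-beta from its latent complex, had 7.49, 8.84 and 4.75 CPM in DJL1, against 2.86, 2.74, 3.72 and 3.21 CPM in CTRL. All DJL1 values were above the CTRL values, and the log2 fold change was 1.17 ± 0.18 (adjusted p = 5.1e-05). ITGA8, the nephronectin receptor subunit of the developing kidney, had 23, 50 and 21 counts in DJL1, against 7, 3, 1 and 7 counts in CTRL, or 0.86 ± 0.49 CPM in DJL1 and 0.07 ± 0.05 CPM in CTRL. It rose by 3.62 on the log2 scale (SE 0.58, adjusted p = 8.5e-05), and by 3.05 without DJL1 replicate 2. Every CTRL library was below the filter's cutoff, so ITGA8 was tested through the DJL1 libraries alone. ITGA5, the fibronectin receptor subunit, averaged 33.6 ± 4.74 CPM in DJL1 and 32.1 ± 1.06 CPM in CTRL and was not called (95% interval -0.08 to 0.22), but passed without DJL1 replicate 1, where its log2 fold change was 0.17 (adjusted p = 0.0131). ITGA2B, known from platelets, averaged 7.15 ± 0.84 CPM in DJL1 and 8.28 ± 0.40 CPM in CTRL and passed only without DJL1 replicate 2 (-0.29, adjusted p = 0.0346). ITGB3 stood near 1 CPM in both groups and was not called. ITGB6, an epithelial subunit, had 4, 4 and 6 counts in DJL1, against 1, 2, 0 and 3 counts in CTRL, and was the 1 member that did not pass the filter.

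Among collagen receptor subunits the changes were small. ITGA1 had 4.67, 5.34 and 6.34 CPM in DJL1, against 7.22, 6.62, 7.22 and 6.299 CPM in CTRL, with 1 DJL1 library inside the CTRL range. Its log2 fold change of -0.33 ± 0.12 (adjusted p = 0.0301) lost the call without CTRL replicate 1 (adjusted p = 0.0827), CTRL replicate 3 (0.0749) or DJL1 replicate 1 (0.11) and in thinned counts (0.0516), and the overlapping gene PELO had 40.5 CPM in DJL1 and 40.7 CPM in CTRL. ITGA2 averaged 7.68 ± 1.05 CPM in DJL1 and 6.49 ± 0.57 CPM in CTRL, with a log2 fold change of 0.24 that passed only without DJL1 replicate 2 (0.32, adjusted p = 0.0308). ITGA10 and ITGA11, at a mean under 1 CPM, were not called. ITGA9, a receptor subunit for tenascin and other ligands, averaged 22.0 ± 0.91 CPM in DJL1 and 17.1 ± 0.98 CPM in CTRL and rose by 0.37 on the log2 scale (adjusted p = 0.00026). Its relative ITGA4 averaged 2.12 ± 0.58 CPM in DJL1 and 1.596 ± 0.26 CPM in CTRL (log2 fold change 0.41) and was called without DJL1 replicate 3 alone (0.61, adjusted p = 0.0193).

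Integrin genes known from leukocytes were detected at a low level and mostly rose. ITGAM, a subunit of the complement receptor of myeloid cells, had 9.66, 11.2 and 11.3 CPM in DJL1, against 4.53, 4.81, 4.97 and 4.88 CPM in CTRL (log2 fold change 1.15 ± 0.10, adjusted p = 1.2e-07). Its partner ITGB2 had 4.12, 4.71 and 6.42 CPM in DJL1, against 2.58, 2.93, 2.30 and 2.59 CPM in CTRL (0.96 ± 0.16, adjusted p = 0.00012). Neither gene had overlapping groups. ITGAL, the alpha subunit of the lymphocyte receptor for ICAM proteins, averaged 5.42 ± 0.52 CPM in DJL1 and 3.29 ± 0.49 CPM in CTRL and rose by 0.73 on the log2 scale. ITGAD, another leukocyte alpha subunit, had 1.12, 1.31 and 0.405 CPM in DJL1, against 0.353, 0.237, 0.402 and 0.318 CPM in CTRL, and rose by 1.53 with DJL1 replicate 3 barely above CTRL. ITGAX was not called (8.68 ± 1.88 CPM in DJL1 and 9.99 ± 0.92 CPM in CTRL) except without DJL1 replicate 2 (-0.38, adjusted p = 0.0137). ITGAE, known from T cells of the gut lining, had 6.08, 5.96 and 5.77 CPM in DJL1, against 9.56, 8.47, 9.01 and 9.03 CPM in CTRL, and fell by 0.60 on the log2 scale (adjusted p = 5.9e-05). The gene HASPIN overlaps ITGAE and had 20.02 CPM in DJL1 and 24.9 CPM in CTRL. ITGB7 had 7, 18 and 32 counts in DJL1, against 11, 10, 9 and 12 counts in CTRL, and its call (log2 fold change 1.70, adjusted p = 0.0132) was lost without DJL1 replicate 3 (1.11, adjusted p = 0.127). The CTRL libraries of ITGB7 alone would not have passed the filter, so its test depended on the DJL1 libraries. The row of ZNF740, which overlaps ITGB7, had 22.7 CPM in DJL1 and 17.6 CPM in CTRL and was higher as well (log2 fold change 0.37, adjusted p = 0.00037). The defining leukocyte gene PTPRC stood at 0.136 CPM in DJL1 and 0.057 CPM in CTRL, and the B cell gene MS4A1 at 0 counts in every DJL1 library and at most 1 count in CTRL. Over the 14 leukocyte and platelet markers the summed level was 108 to 120 CPM in DJL1 and 114 to 121 CPM in CTRL, most of it from LCP1. Of the 10 tested 3 were higher and 2 lower, beside 27.0% and 25.1% of all tested genes. Those higher were the myeloid factor gene SPI1 (3.15 CPM in DJL1 and 1.47 CPM in CTRL), CD14 (2.69 CPM in DJL1 and 1.59 CPM in CTRL) and CORO1A (12.1 CPM in DJL1 and 8.73 CPM in CTRL), and those lower were the platelet genes PF4 and GP1BA. The part of such cells in the changes of the leukocyte integrin genes was not tested.

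**Figure D4:**
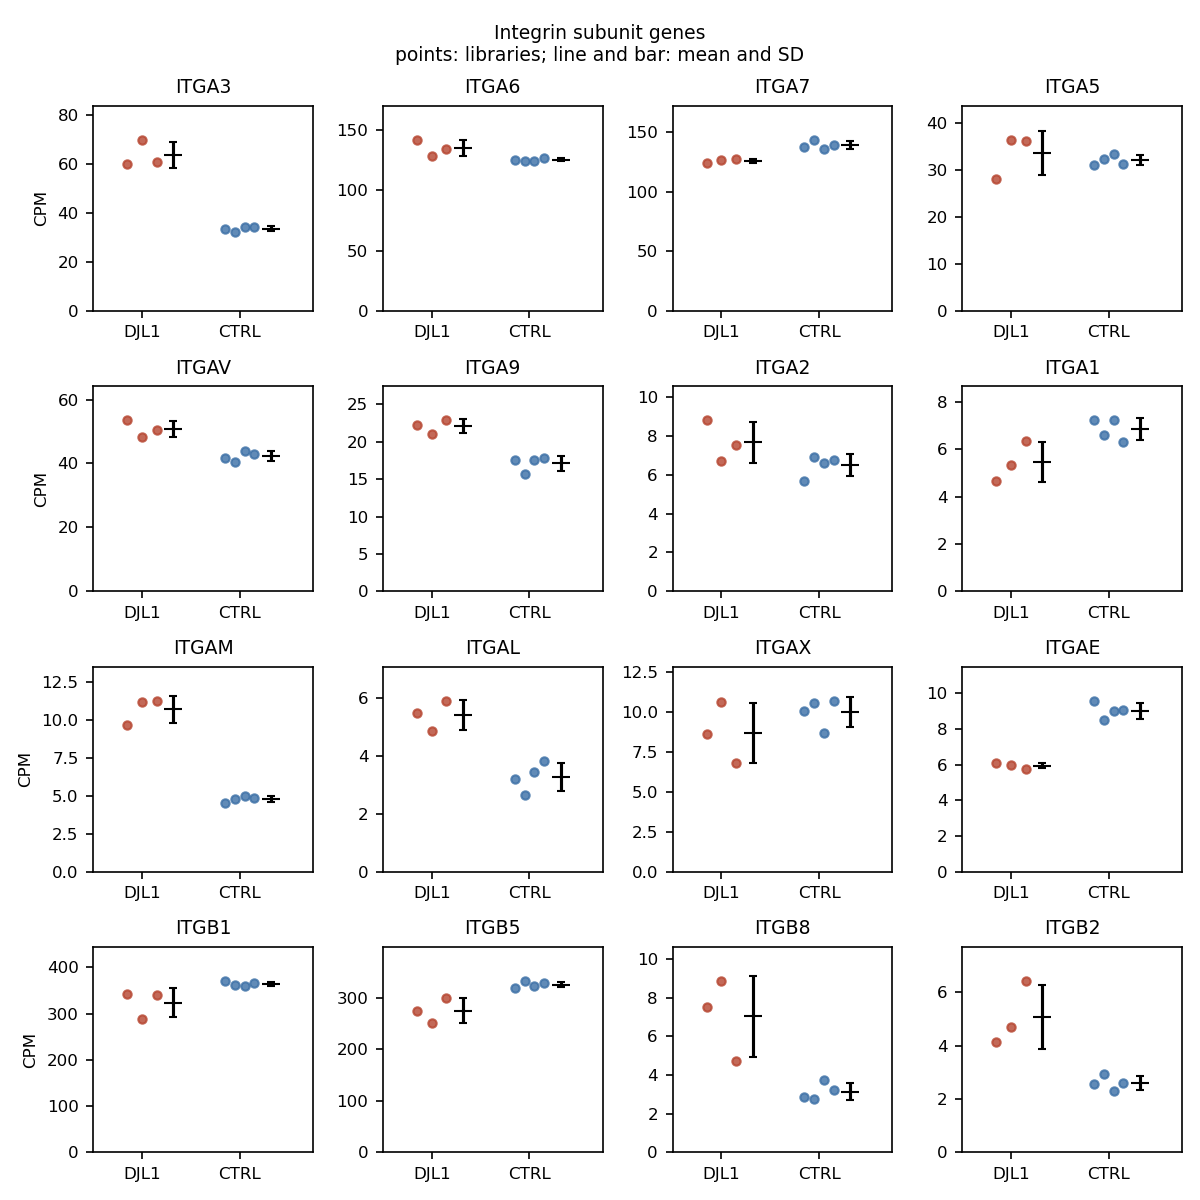
CPM of 16 integrin subunit genes in each library (points), with the mean and SD of the 3 DJL1 and 4 CTRL libraries, each panel on its own scale from 0. ITGA3, ITGAM, ITGB8 and ITGB2 are higher in DJL1 and ITGAE, ITGB1 and ITGB5 lower, each with no overlap, while ITGA5 and ITGAX overlap.

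The secreted glycoproteins gave the strongest fall and some of the clearest rises. FN1, the fibronectin gene and ligand of ITGA5 and ITGAV, had 295, 296 and 285 CPM in DJL1, against 186, 179, 188 and 191 CPM in CTRL (log2 fold change 0.65 ± 0.04, adjusted p = 2.5e-09). The overlapping row of ATIC, a purine synthesis gene, had 127 CPM in DJL1 and 166 CPM in CTRL and fell. FBN1 and FBN2 encode the fibrillins of microfibrils, which also hold latent TGF-beta. FBN1 had 12.2, 13.5 and 11.6 CPM in DJL1, against 5.63, 3.93, 5.28 and 5.44 CPM in CTRL, and FBN2 had 36.2, 33.6 and 29.7 CPM in DJL1, against 17.99, 16.4, 16.2 and 17.7 CPM in CTRL. These genes had no overlap between groups, and their log2 fold changes were 1.29 ± 0.12 (adjusted p = 2.9e-07) for FBN1 and 0.96 ± 0.07 (adjusted p = 2.9e-08) for FBN2. The third fibrillin, FBN3, which is no member, had 65.8 CPM in DJL1 and 110 CPM in CTRL (log2 fold change -0.74 ± 0.04, adjusted p = 9.5e-10). ECM1, a glycoprotein that binds perlecan and other matrix proteins, had 5.74, 8.84 and 7.93 CPM in DJL1, against 21.8, 20.7, 21.2 and 19.9 CPM in CTRL. Each DJL1 library was far below each CTRL library (log2 fold change -1.48 ± 0.11, adjusted p = 2.7e-08). VTN, the vitronectin gene, was near the limit of detection at 10, 9 and 32 counts in DJL1, against 31, 45, 22 and 55 counts in CTRL, and was not called (95% interval -1.20 to 0.59). DJL1 replicate 3 stood apart from the other DJL1 libraries, and the log2 fold change of -0.31 was -1.14 without it (adjusted p = 0.051).

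The promoters of ECM1 and FN1 are shown as those of the member with the strongest fall and of the most abundant glycoprotein gene, each as the 250 bases before the RefSeq start in GRCh38.p14. Capitals mark matches to TGANTCA in ECM1, which begin 204 and 78 bases before the start, and to the CRE motif TGACGTCA in FN1, which begins 183 bases before it.
ECM1, chr1:150507859-150508108, plus strand: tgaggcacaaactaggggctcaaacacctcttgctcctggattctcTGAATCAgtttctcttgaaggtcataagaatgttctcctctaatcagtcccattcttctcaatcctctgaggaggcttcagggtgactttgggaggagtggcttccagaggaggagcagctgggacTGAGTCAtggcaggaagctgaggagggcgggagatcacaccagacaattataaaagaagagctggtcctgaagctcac
FN1, chr2:215436069-215436318, minus strand: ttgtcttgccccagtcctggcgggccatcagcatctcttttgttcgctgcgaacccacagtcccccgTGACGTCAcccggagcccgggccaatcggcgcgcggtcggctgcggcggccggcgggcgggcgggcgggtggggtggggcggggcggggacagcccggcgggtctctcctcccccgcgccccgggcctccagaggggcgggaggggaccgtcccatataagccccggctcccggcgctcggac
The AP-1 match is thus held by LAMA3, which rose, and by ECM1, which fell, and a match is a description of the letters alone.

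Of the linkers of the basement membrane, NID1 and HSPG2 were not called. NID1, the main nidogen, averaged 57.8 ± 2.16 CPM in DJL1 and 56.6 ± 1.42 CPM in CTRL, with a 95% interval of the log2 fold change from -0.06 to 0.12. HSPG2, which encodes perlecan, averaged 47.9 ± 2.05 CPM in DJL1 and 45.5 ± 1.46 CPM in CTRL, with an interval from -0.02 to 0.17. NID2, the second nidogen, had 5.27, 7.76 and 5.94 CPM in DJL1, against 4.77, 4.80, 4.68 and 4.85 CPM in CTRL. Its log2 fold change of 0.40 ± 0.13 (adjusted p = 0.0157) fell to 0.22 without DJL1 replicate 2 (adjusted p = 0.124). The overlapping gene RTRAF had 98.8 CPM in DJL1 and 116 CPM in CTRL.

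**Figure D5:**
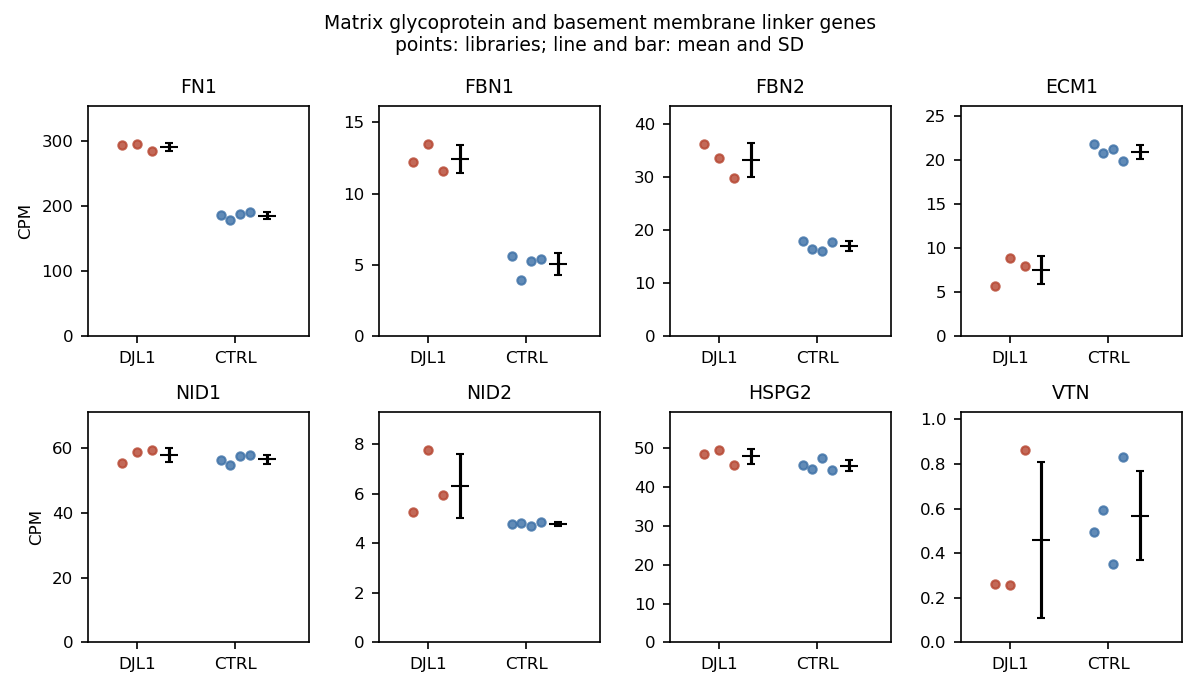
CPM of the 5 matrix glycoprotein genes and 3 basement membrane linker genes in each library (points), with the mean and SD of the 3 DJL1 and 4 CTRL libraries, each panel on its own scale from 0. FN1, FBN1 and FBN2 lie higher and ECM1 lower in DJL1 with no overlap, and NID1, HSPG2 and VTN overlap.

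Other genes of the pathway, from 4 lists of textbook members, are given beside 27.0% higher and 25.1% lower over all tested genes. Of 40 genes for the integrin adhesion machinery inside the cell, 9 were higher and 12 lower (22.5% and 30.0%, median log2 fold change -0.08). Those with the smallest adjusted p were the actin crosslinker ACTN4 (0.26), the docking protein gene NEDD9 (0.78) and the kindlin gene FERMT1 (-0.43). Of 15 non-integrin receptors and partners, 8 were higher and 3 lower (53.3% higher, median 0.15), led by the syndecan genes SDC2 (1.32) and SDC4 (0.40) and the collagen receptor gene DDR2 (1.28). Of 36 genes for matrix assembly, 17 were higher and 7 lower (47.2% and 19.4%, median 0.13), and besides FBN3 the smallest adjusted p values were those of THBS1, thrombospondin (0.96), and NTN4, a netrin related to laminins (0.99). Of 26 tested proteases and inhibitors, 15 were higher and 5 lower (57.7% and 19.2%, median 0.36), among them the urokinase gene PLAU (1.09) and the membrane protease gene MMP14 (0.66).

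Markers of other cell types moved as well, and are given beside 27.0% higher and 25.1% lower over all tested genes. The summed level of 16 fibroblast markers was 839 to 962 CPM in DJL1 and 552 to 569 CPM in CTRL, led by the collagen gene COL1A1 at 484 CPM in DJL1 and 241 CPM in CTRL, and 10 of the 13 tested were higher. Others that were higher included ACTA2 (log2 fold change 1.71), PDGFRB (1.41) and TBX18, which averaged 2.08 CPM in DJL1 and 0.533 CPM in CTRL. PRRX1 (2.46) had only 0.301 CPM in DJL1 and 0.053 CPM in CTRL and passed the filter through the DJL1 libraries alone. PDGFRA (32.1 CPM in DJL1 and 33.3 CPM in CTRL), POSTN (-0.33) and S100A4 (0.22) were not called. The defining fibroblast genes DCN and LUM were near 0 and not tested, with DCN at 0.057 CPM in DJL1 and 0.011 CPM in CTRL and LUM at 0.119 CPM in DJL1 and 0.023 CPM in CTRL. Over 15 trophectoderm markers the sum was 71.2 to 90.1 CPM in DJL1 and 29.4 to 33.6 CPM in CTRL, with 10 of 12 tested higher and ELF5 and VGLL1 at 0 counts in every DJL1 library. For 14 primitive endoderm markers it was 549 to 614 CPM in DJL1 and 474 to 480 CPM in CTRL, with 8 of 13 tested higher. For 10 muscle markers it was 117 to 138 CPM in DJL1 and 94.2 to 99.2 CPM in CTRL, with 5 of 8 tested higher, and for 10 endothelial markers 58.1 to 58.7 CPM in DJL1 and 54.6 to 58.2 CPM in CTRL, with 4 of 8 higher. The part of such cells in the changes of LAMA3, ITGA3, FN1 and the fibrillins was not tested.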

How the data were processed

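Raw gene-level counts, 1 column per library per the file headers, were used as the authors deposited them. Trim Galore 0.4.0, HISAT2 2.2.1, featureCounts, Subread 1.5.0, GRCh38 and hg38 are named, without roles, in the submitters' processing notes. Per the labels' protocols the kit was directional with poly(A) selection. No source used here states the strand setting or the treatment of multi-mapping reads, so antisense and pseudogene rows may share reads. The authors' log table and comparison table were not used.

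Groups come from the titles. Nothing in the labels says that replicates are separate cultures, so p-values measure a spread between samples that may be technical. filterByExpr (at least 10 counts, total 15) kept 26062 of 59251 rows, with 99.9% of counts. DJL1 was compared with CTRL by edgeR 4.0.16 in R 4.3.3 (TMM, robust quasi-likelihood fit, Benjamini-Hochberg at 0.05), checked on simulated counts. The SE is the log2 fold change over the root of F, and 95% intervals assume a normal estimate. Alternatives were DESeq2 1.42.0, limma-voom 3.58.1, other scalings and filters (stricter: 1 CPM in 3 libraries), thinning, each library left out and a replicate block. Members and lists were chosen with earlier results of these data known. The members are named, and from each pathway list the 3 genes with the smallest adjusted p, except for 1 member and 1 list gene that are counted but not reported here by name. Positions and promoters are RefSeq GRCh38.p14 (46 and 34 of 46 matched), and lengths are GENCODE release 29.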

Additional observations from a re-analysis of the deposited data

Results flagged for a closer look

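Of 46 members checked, 2 had a CTRL library far from the other 3, by the gap to its neighbour as a share of the whole range (Dixon's test). Chance flags about 1 in 20 such groups. ITGA9 had 15.7 CPM in CTRL replicate 2, against 17.5 to 17.8 CPM in the other CTRL libraries, and all 4 lay below the DJL1 libraries. ITGA6 had 126.8 CPM in CTRL replicate 4, against 124.3 to 124.6 CPM in the others.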

How the results depend on the processing

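Of the 32 called members, 26 kept direction and call in each of 16 alternatives in which they were tested, and the other 6 (ITGA1, ITGA6, ITGB7, LAMB3, LAMC1 and NID2) kept their direction. LAMB4 and ITGB7 were tested in 9 of the 16. Members called higher numbered 16 to 20 and lower 10 to 14 with a library left out, and at an adjusted p under 0.01 they numbered 15 and 9.
Counts by role moved as follows. Among laminin-binding alpha subunits 1 was higher with relative log expression factors, no filter or the replicate block. Among RGD-binding subunits 1 was higher with the stricter filter, and among collagen-binding subunits 0 were lower in thinned counts, ITGA1 having missed the threshold (edgeR, adjusted p = 0.0516). Among laminin beta chains 1 was higher with the stricter filter, thinning or the block, and among gamma chains 1 was lower with upper quartile factors, library size alone, the stricter filter or the block. Of the non-integrin receptors 1 was lower with the block. With a library left out the counts ran from 1 to 2 (laminin-binding, higher), 0 to 1 (collagen-binding, higher and lower; RGD-binding, lower; linkers, higher), 1 to 2 (ITGA4 with ITGA9, higher; leukocyte, lower; gamma chains, lower), 0 to 2 (beta chains, higher) and 1 to 3 (receptors, lower). Some of these moves reflect a gene that did not pass the filter, not a lost call. LAMB4 was not tested with the stricter filter, thinning, the block or any CTRL library left out, nor ITGA8 with the stricter filter. Both kept their calls wherever they were tested. The cause of the other moves was not tested.
Among uncalled members the sign turned for NID1 with no filter (-0.00049) and for LAMA2 with upper quartile factors (0.0031), library size alone (0.00087) and the stricter filter (0.01). With a library left out, log2 fold changes ran from -0.0083 to 0.17 for ITGA5, from -0.52 to 0.17 for ITGA11, from -0.02 to 0.32 for ITGB4 and from -0.05 to 0.02 for LAMA2, each turning sign.
Same-numbered libraries did not deviate together (r of -0.0388 to -0.00889), so the numbers were not taken as pairs; with the replicate block 5995 genes were higher and 5573 lower, and 17 members higher and 11 lower. With the block the members ITGA6 (adjusted p = 0.0951) and LAMC1 (0.143) lost their calls. VTN, ITGB6, ITGB7 and LAMB4 had few counts in each library, and in DJL1 replicate 3 VTN and ITGB7 had more counts than in the other DJL1 libraries.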

Other observations

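Several members lie next to each other in the genome, and neighbours did not always share a direction. LAMB4 and LAMB1 are 8.5 kb apart on chromosome 7, with log2 fold changes of 2.23 and -0.38, the first from few counts. ITGA2 and ITGA1 are 30.1 kb apart on chromosome 5, with 0.24 (not called) and -0.33. On chromosome 16, ITGAD, ITGAX and ITGAM follow each other within 60.5 kb and had 1.53, -0.21 (not called) and 1.15. FN1 overlaps ATIC, a purine synthesis gene, whose log2 fold change was -0.39. FN1 also overlaps the divergent transcript FN1-DT, at 0.34 CPM in DJL1 and 0.11 CPM in CTRL (log2 fold change 1.63, edgeR, adjusted p = 0.017). The CTRL libraries of FN1-DT alone would not have passed the filter, so it was tested only because of the DJL1 libraries.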
